A study of Mus musculus with 6 samples.

Results

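The Fc gamma receptors bind the constant part of immunoglobulin G. They were followed here as 5 genes: Fcgr1, Fcgr2b, Fcgr3 and Fcgr4, which encode the IgG-binding chains, and Fcer1g, which encodes the signalling chain they share. Members were chosen by gene name, as every probe set annotated to exactly 1 of these symbols. Each gene had 1 such probe set, so the family holds 5 of 34760 probe sets and 5 of the 19937 genes to which those probe sets were reduced. Affymetrix mouse gene arrays measured expression in pre-granulocyte-macrophage progenitors (PreGMs), an early myeloid progenitor of bone marrow, with 1 array per mouse. There were 3 arrays labelled Cebpa flox/flox and 3 labelled Cebpa flox/flox;Mx1Cre, and the comparison asks how these progenitors change when Cebpa, which encodes the myeloid transcription factor C/EBPα, is deleted. All 6 mice were C57BL/6 females with both Cebpa alleles floxed, and all had received pIC, the controls included. Bone marrow was taken at day 18. The ages of the mice were not given in the labels used here. In the Mx1Cre mice the Cre recombinase is driven by the Mx1 promoter, which pIC induces through interferon in haematopoietic and other cells, so deletion is not limited to PreGMs. Per the labels, cells were sorted as lineage-negative, Sca1-negative and Kit-positive, without CD150, CD41, endoglin or FcγRII, the product of Fcgr2b.

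Among the IgG receptors of the mouse, FcγRI (Fcgr1), FcγRIII (Fcgr3) and FcγRIV (Fcgr4) are activating. They depend on the FcR γ chain (Fcer1g), whose cytoplasmic tyrosine motif (ITAM) recruits the kinase Syk. FcγRIIB (Fcgr2b) is inhibitory and carries a tyrosine motif of its own (ITIM) that recruits the phosphatase SHIP1 (Inpp5d). FcγRII and FcγRIII have closely similar extracellular parts, and antibodies in wide use for progenitor sorting bind both. The antibody clone was not given in the labels used here. High staining for these receptors marks the granulocyte-macrophage progenitor, the stage after the PreGM.

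Values are deposited log2 expression values, and differences are the mean of the arrays labelled Mx1Cre minus that of the arrays labelled flox/flox, tested with limma and adjusted over all 19937 genes. A gene is called changed at an adjusted p under 0.05. Of all genes 4.91% were called in either direction, 2.63% higher and 2.28% lower in the arrays labelled Mx1Cre. To place a level, the mean log2 values of all genes had their lower quartile at 5.63, their median at 6.64 and their upper quartile at 8.07. Probe sets differ in how brightly they respond, so these quartiles place a level only roughly and set no order between genes. Cebpa ran against the labels: it averaged 6.83 ± 0.11 in the flox/flox arrays against 9.0 ± 0.30 in the Mx1Cre arrays (SD, n = 3 each). The place of its probes relative to the deleted part was not used here. Every direction given here follows the labels as deposited and would turn with the labels. In a sorted population, a change in the share of cells that hold a transcript and a change in the amount per cell cannot be told apart.

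The low-affinity receptors moved in opposite directions. Fcgr3, the activating receptor, fell 2.06-fold in the arrays labelled Mx1Cre, and Fcgr2b, the inhibitory receptor, rose 1.34-fold. Fcgr1, Fcgr4 and Fcer1g did not pass the test. Thus 2 of 5 members were called, beside 4.91% of all genes. Fcgr2b, Fcgr3 and Fcgr4 were each read by 1 probe set. The probe sequences were not at hand, so signal from a related transcript was not examined.

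Fcgr3 read 8.25, 8.33 and 7.83 in flox/flox replicates 1, 2 and 3, and 6.82, 7.50 and 6.95 in Mx1Cre replicates 1, 2 and 3. The groups did not overlap, and 0.32 log2 units separated the lowest flox/flox array, replicate 3, from the highest Mx1Cre array, replicate 2. Group means were 8.14 ± 0.27 and 7.09 ± 0.36 (SD, n = 3 each). The difference was -1.04 ± 0.18 log2 units (SE), with a limma adjusted p of 0.00970. It held its sign and its call when any 1 array was left out, at -1.25 to -0.91 log2 units. The call was lost when all 34760 probe sets entered the fit (limma adjusted p = 0.110) and when the spread of each gene was taken from its own 6 values alone (adjusted p = 0.377). The test with each gene's own spread called 0 of all genes, so the loss there is not particular to Fcgr3.

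Fcgr2b read 6.61, 6.73 and 6.88 in flox/flox replicates 1, 2 and 3. It read 7.05, 7.25 and 7.19 in Mx1Cre replicates 1, 2 and 3. The groups did not overlap, although the gap between them was 0.17 log2 units. Group means were 6.74 ± 0.14 and 7.16 ± 0.10 (SD, n = 3 each). The difference was 0.43 ± 0.10 log2 units (SE), with a limma adjusted p of 0.0410, close to the threshold. The direction was the same when any 1 array was left out (0.36 to 0.50 log2 units), but the call was lost without flox/flox replicate 1 (limma adjusted p = 0.147), flox/flox replicate 2 (0.105), flox/flox replicate 3 (0.0503), Mx1Cre replicate 2 (0.125) or Mx1Cre replicate 3 (0.140). It was also lost with median centring of the arrays (0.0867), with all probe sets in the fit (0.166) and with each gene's own spread (0.359), where 0 of all genes were called.

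**Figure D1:**
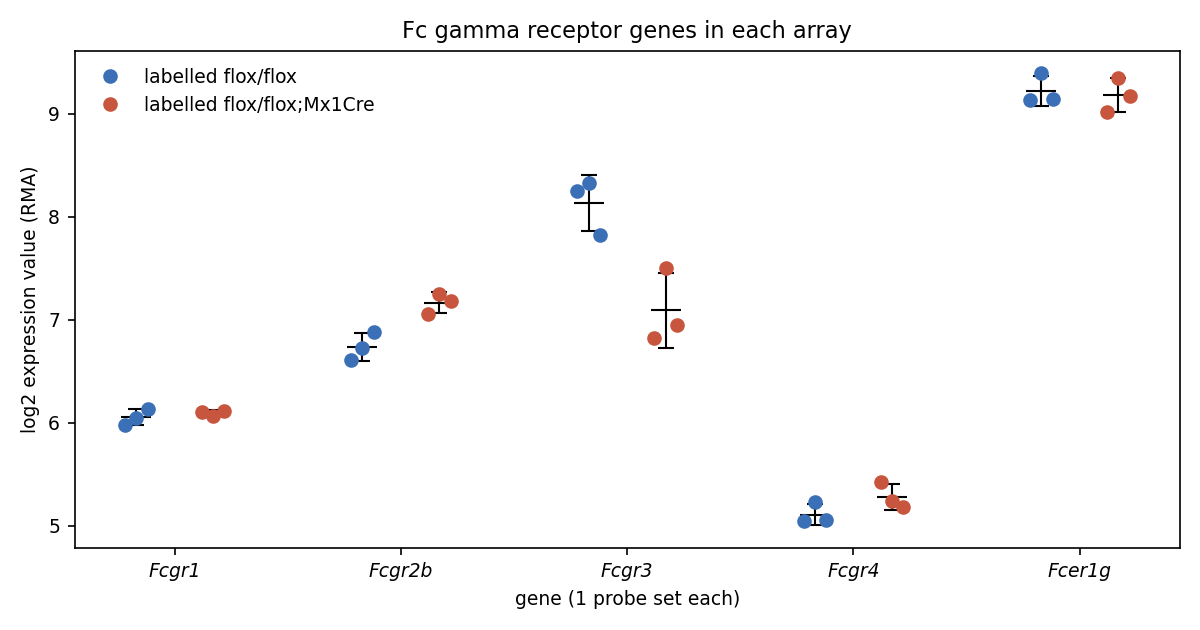
Log2 expression values of the 5 Fc gamma receptor genes in each array, with points for single arrays and bars for the mean ± SD of 3 arrays. Fcgr3 was lower and Fcgr2b higher in the arrays labelled flox/flox;Mx1Cre with no overlap, while the groups overlapped for Fcgr1, Fcgr4 and Fcer1g.

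The value of Fcgr2b minus that of Fcgr3 within each array shows both genes at once. Its direction follows from the opposite differences of the genes, so it is a description and no further support for either. It was -1.65, -1.60 and -0.95 log2 units in flox/flox replicates 1, 2 and 3, and 0.23, -0.25 and 0.24 in Mx1Cre replicates 1, 2 and 3. All 3 arrays labelled Mx1Cre lay above all 3 labelled flox/flox. The mean was -1.40 ± 0.39 in the flox/flox group and 0.07 ± 0.28 in the Mx1Cre group (SD, n = 3 each), a shift of 1.47 log2 units. By exact permutation of the array labels (two-sided) p was 0.1, below which a design of this size cannot go and which groups that do not overlap always give.

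**Figure D2:**
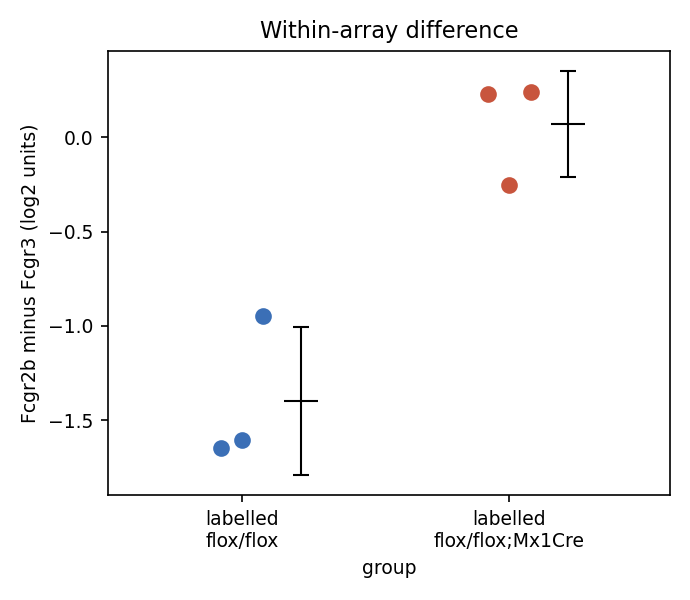
Log2 value of Fcgr2b minus that of Fcgr3 in each array, by group, with points for single arrays and bars for the mean ± SD of 3 arrays. The arrays labelled flox/flox lie between -1.65 and -0.95, and those labelled flox/flox;Mx1Cre between -0.25 and 0.24.

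Fcgr2b and Fcgr3 lie near each other on chromosome 1, and the bases just upstream of their starts are shown because the transcripts went opposite ways. Each sequence is the 250 bases before the annotated start (the first of 2 listed starts for Fcgr3), 5′ to 3′ on the strand of the gene, from RefSeq on GRCm38.p6. Capitals mark matches on either strand to GAGGAA, a core of sites for the myeloid factor PU.1, or to TTGCNNAA, a form of the C/EBP site. The Fcgr3 stretch, chr1:171059404-171059653 on the minus strand, and the Fcgr2b stretch, chr1:170976072-170976321 on the minus strand, read as follows.
Fcgr3: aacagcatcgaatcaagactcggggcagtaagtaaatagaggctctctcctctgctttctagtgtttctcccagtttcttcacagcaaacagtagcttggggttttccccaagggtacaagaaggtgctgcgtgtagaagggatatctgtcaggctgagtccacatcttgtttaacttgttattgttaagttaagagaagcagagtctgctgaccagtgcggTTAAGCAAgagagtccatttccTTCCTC
Fcgr2b: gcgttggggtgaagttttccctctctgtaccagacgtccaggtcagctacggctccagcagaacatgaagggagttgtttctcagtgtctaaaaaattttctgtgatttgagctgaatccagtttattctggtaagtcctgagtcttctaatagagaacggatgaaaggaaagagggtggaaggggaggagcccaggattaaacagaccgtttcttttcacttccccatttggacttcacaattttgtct
The Fcgr3 stretch holds 1 match to each motif, both on the opposite strand, and the matches do not overlap. The C/EBP form appears as TTAAGCAA, whose first base lies 28 bases before the start, and the PU.1 core as TTCCTC in the last 6 bases. The Fcgr2b stretch holds no match to either. Matches are a description of letters and not of binding.

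Fcgr1 and Fcgr4 each hold 1 match to the PU.1 core in the same window, on the opposite strand, and none to the C/EBP form. Fcer1g holds neither. Their matches are shown with 12 bases on each side, Fcgr1 from chr3:96294007-96294036 on the minus strand and Fcgr4 from chr1:171018892-171018921 on the plus strand.
Fcgr1: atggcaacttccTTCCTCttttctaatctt
Fcgr4: aaggctatttacTTCCTCtcttctagtcaa
Over the first listed start of 27025 genes, 23.1% of such 250-base stretches hold the PU.1 core on either strand and 9.55% hold the C/EBP form. In the family 3 of 5 hold the former and 1 of 5 the latter.

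Fcer1g, the shared γ chain that activating receptors need at the cell surface, was bright in every array. It read 9.13, 9.39 and 9.15 in flox/flox replicates 1, 2 and 3, and 9.01, 9.35 and 9.18 in Mx1Cre replicates 1, 2 and 3. The groups overlapped. The difference was -0.04 ± 0.11 log2 units (SE), with a 95% interval of -0.30 to 0.21 and a limma adjusted p of 0.923. Its sign turned to 0.04 without flox/flox replicate 2 and without Mx1Cre replicate 1. A fall of Fcer1g by over 0.30 or a rise by over 0.21 lies outside that interval.

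Fcgr1, the high-affinity receptor of monocytes and macrophages, was dim. It read 5.98, 6.05 and 6.13 in flox/flox replicates 1, 2 and 3, and 6.11, 6.07 and 6.12 in Mx1Cre replicates 1, 2 and 3. The difference was 0.04 ± 0.09 log2 units (SE), with a 95% interval of -0.15 to 0.23 and a limma adjusted p of 0.895. Fcgr4, an activating receptor of monocytes and neutrophils, lay below the lower quartile of levels on all 6 arrays. Its values were 5.05, 5.23 and 5.05 in flox/flox replicates 1, 2 and 3, and 5.43, 5.24 and 5.18 in Mx1Cre replicates 1, 2 and 3. The highest flox/flox array exceeded the lowest Mx1Cre array. The difference was 0.17 ± 0.10 log2 units (SE), with a 95% interval of -0.05 to 0.39 and a limma adjusted p of 0.462. Changes of dim genes tend to be understated in values of this kind.

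Group values did not overlap for 2 of the 5 members, Fcgr2b and Fcgr3, beside 21.6% of all genes. The spread within a group was largest for Fcgr3, whose 3 arrays covered 0.50 log2 units in the flox/flox group and 0.68 in the Mx1Cre group. It was smallest for Fcgr1, at 0.15 and 0.05.

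The genes whose profile over the 6 arrays came closest to each member were found by the root mean square distance between profiles, each centred on its own mean, among 17057 genes with established names. For Fcgr3 these were Gimap9, a GTPase of the immunity-associated family (distance 0.16 log2 units, difference -1.16), Usp18, a negative regulator of interferon signalling (0.17, difference -1.20), and Gdpd1 (0.17, difference -0.93). For Fcgr2b they were Rufy1 (0.04, difference 0.48), the uridine-cytidine kinase gene Uck2 (0.04, difference 0.49) and Klhl5 (0.04, difference 0.40). Since likeness of profile was the measure, the differences of these genes follow that of the member by construction. The nearest profiles were Rpn1, Dpp8 and Try4 for Fcgr1, Lrrn4, Mks1 and Wt1 for Fcgr4, and Mrps7, Tmem160 and Akr7a5 for Fcer1g.

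Fcgr2b, Fcgr4 and Fcgr3 follow one another on chromosome 1 in the reference gene table, with 1 other measured gene, a provisional model, among them. Fcer1g lies further along, with 6 measured genes between it and Fcgr3. In the stretch of 21 measured genes around them, 17 are not members, and their differences ran from -0.19 to 0.55 log2 units. The only call among these 17 was Atf6, which encodes a sensor of endoplasmic reticulum stress and rose by 0.55 ± 0.11 log2 units (SE, limma adjusted p = 0.0220). Its call was lost without flox/flox replicate 1 (0.0729), flox/flox replicate 2 (0.0750), Mx1Cre replicate 1 (0.0535) or Mx1Cre replicate 3 (0.0689). The measured genes next to Fcgr3, Fcgr4 on one side and Cfap126 on the other, differed by 0.17 and -0.19 log2 units, and neither passed. Around Fcgr1 on chromosome 3 0 of the 10 nearest measured genes passed with limma (2 at an unadjusted p under 0.05). Over both places 1 of 26 neighbours, which leave out the provisional model, was called, beside 4.91% of all genes. Their median difference was 0.02 log2 units against -0.01 over all genes.

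**Figure D3:**
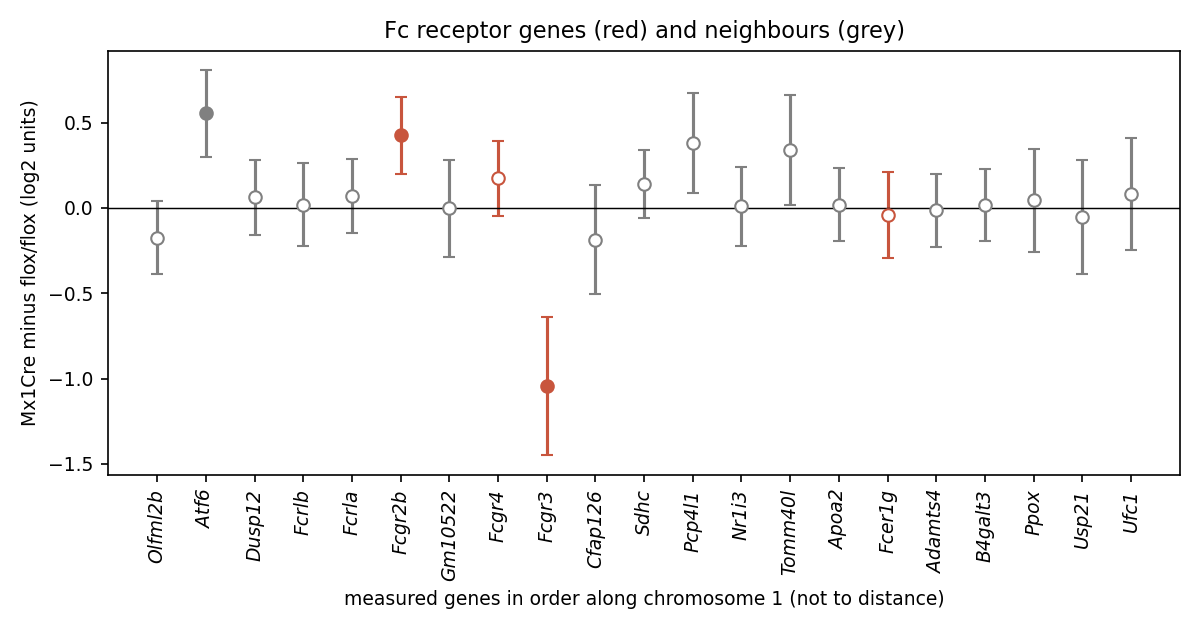
Difference between groups (Mx1Cre minus flox/flox, log2 units) for 21 measured genes in their order along chromosome 1, with 95% intervals. Filled points passed at an adjusted p under 0.05, and the fall of Fcgr3 by 1.04 stands between neighbours at 0.17 and -0.19.

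Of 13 measured receptors for immunoglobulins outside the family, 1 rose and 1 fell, beside 4.91% of all genes called. Both belong to the high-affinity IgE receptor, which shares the chain encoded by Fcer1g. Fcer1a, the IgE-binding α chain, read 7.79, 7.08 and 7.12 in flox/flox replicates 1, 2 and 3 and 4.91, 6.27 and 5.55 in Mx1Cre replicates 1, 2 and 3. It fell by 1.75 ± 0.30 log2 units (SE, limma adjusted p = 0.00805). Ms4a2, the β chain that amplifies its signal, read 6.97, 6.90 and 7.03 in flox/flox replicates 1, 2 and 3 and 7.73, 8.74 and 8.28 in Mx1Cre replicates 1, 2 and 3. It rose by 1.28 ± 0.20 log2 units (SE, limma adjusted p = 0.00529). The groups did not overlap for either gene, so the 3 chains of this receptor, α, β and γ, showed a fall, a rise and a difference of -0.04. Both calls held without any 1 array and were lost with all probe sets in the fit (0.109 and 0.0823).

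The other 11 receptors did not pass, with differences of -0.44 to 0.19 log2 units. They include the Fc receptor-like genes Fcrla and Fcrlb beside Fcgr2b, at 0.07 and 0.02. The neonatal Fc receptor gene Fcgrt had no probe set of its own here and was not analysed.

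Other ITAM adaptors and the receptors that pair with the FcR γ chain gave 1 call among 13 measured genes, beside 4.91% of all genes. Clec4e, the pattern receptor Mincle, which signals through the γ chain, read 10.8, 10.7 and 10.4 in flox/flox replicates 1, 2 and 3 and 8.98, 9.01 and 9.09 in Mx1Cre replicates 1, 2 and 3. It fell by 1.59 ± 0.12 log2 units (SE, limma adjusted p = 5.22e-05) and was called without any 1 array. Tyrobp, the adaptor DAP12 that serves receptors in the same way as the γ chain, was bright at 11.8 ± 0.11 and 11.8 ± 0.03 (SD, n = 3 each). Its difference was 0.06 ± 0.09 log2 units (SE, limma adjusted p = 0.835).

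Downstream of activating receptors, 3 of 31 measured genes rose, 4 fell and 24 did not pass, with a median of -0.11 log2 units. Of all genes 2.63% were called higher and 2.28% lower. Lat, a membrane adaptor best known from T cells and mast cells, read 10.4, 10.5 and 10.3 in flox/flox replicates 1, 2 and 3 and 8.63, 9.28 and 9.02 in Mx1Cre replicates 1, 2 and 3. It fell by 1.40 ± 0.14 log2 units (SE, limma adjusted p = 0.000540). Lcp2, the adaptor SLP-76, fell by 0.63 ± 0.09 (SE, limma adjusted p = 0.00366). Both were called without any 1 array.

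Syk itself fell by 0.51 ± 0.12 log2 units (SE), from 8.90 ± 0.25 to 8.39 ± 0.06 (SD, n = 3 each), with a limma adjusted p of 0.0440. That call was lost without flox/flox replicate 1 (0.111), flox/flox replicate 3 (0.0993), Mx1Cre replicate 1 (0.105), Mx1Cre replicate 2 (0.106) or Mx1Cre replicate 3 (0.106). Lat2, a relative of Lat in myeloid and B cells, fell by 0.43 ± 0.09 (SE, limma adjusted p = 0.0288). Its call was lost without flox/flox replicate 1 (0.102), flox/flox replicate 2 (0.0523), flox/flox replicate 3 (0.0947), Mx1Cre replicate 1 (0.0688) or Mx1Cre replicate 2 (0.0925).

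The risers were Vav3, a guanine nucleotide exchange factor (0.92 ± 0.10 log2 units, SE, limma adjusted p = 0.000646), Prkcd, protein kinase C δ (0.62 ± 0.09, SE, 0.00353), and Card9, an adaptor of Syk-coupled receptors (0.50 ± 0.12, SE, 0.0386). Vav3 and Prkcd were called without any 1 array. Card9 was lost without flox/flox replicate 2 (0.109), flox/flox replicate 3 (0.142), Mx1Cre replicate 2 (0.118) or Mx1Cre replicate 3 (0.145). Fgr, a Src family kinase, was dim and differed by 0.09 log2 units (limma adjusted p = 0.739). The count of calls in this list was 4 without flox/flox replicate 3 and 4 without Mx1Cre replicate 2.

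Of 13 measured genes for inhibitory signalling 1 fell and 12 did not pass, with a median of -0.05 log2 units. Of all genes 4.91% were called, and for 21.6% the groups did not overlap. Inpp5d, the phosphatase SHIP1 that acts at the ITIM of FcγRIIB, differed by 0.27 ± 0.11 log2 units (SE, limma adjusted p = 0.234). It read 9.22, 8.89 and 9.19 in flox/flox replicates 1, 2 and 3 and 9.44, 9.33 and 9.33 in Mx1Cre replicates 1, 2 and 3, without overlap. Ptpn6, the phosphatase SHP-1, differed by -0.19 ± 0.09 (SE, limma adjusted p = 0.373). The fallen member was Ubash3b, a phosphatase that acts on Syk, at -0.45 ± 0.09 (SE, limma adjusted p = 0.0178). Its call was lost without flox/flox replicate 1 (0.0607), flox/flox replicate 3 (0.0751) or Mx1Cre replicate 2 (0.0576). Without Mx1Cre replicate 3 this list held 2 calls.

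**Figure D4:**
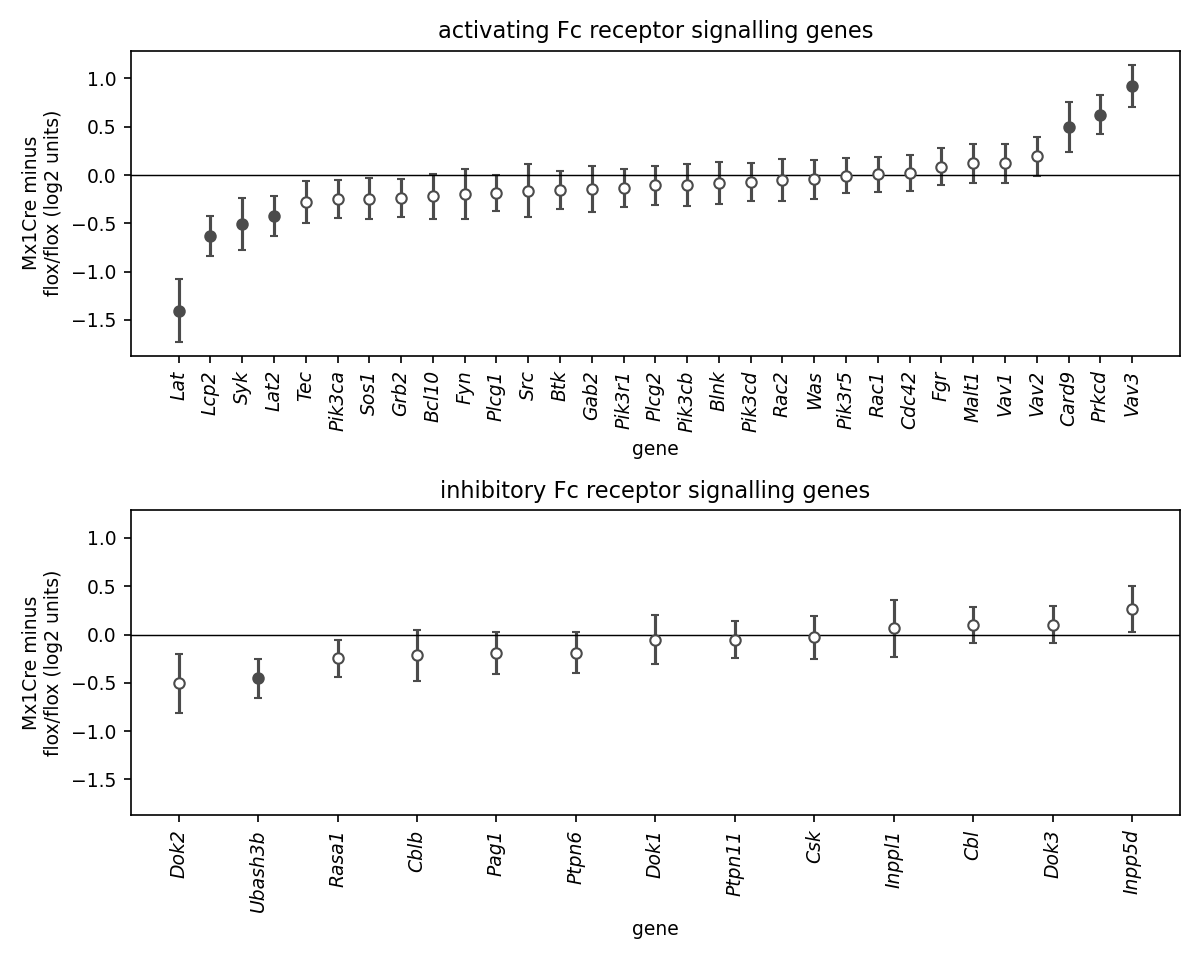
Difference between groups (Mx1Cre minus flox/flox, log2 units) for 13 inhibitory and 31 activating Fc receptor signalling genes, each list sorted by its difference, with 95% intervals. Filled points passed at an adjusted p under 0.05: among activating genes Lat at -1.40 is lowest and Vav3 at 0.92 highest.

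The sort gate was set against the arrays. Kit, the selected antigen, was bright, with group means of 10.5 ± 0.09 and 10.6 ± 0.08 (SD, n = 3 each). Slamf1, which encodes the excluded CD150, lay below the lower quartile in both groups, at 5.46 and 5.29. Itga2b and Eng, which encode the excluded CD41 and endoglin, read 7.95 and 7.37 in the flox/flox arrays and 7.63 and 7.31 in the Mx1Cre arrays. Of these 4 antigens 0 passed with limma (1 at an unadjusted p under 0.05). With each gene's own spread 2 had an unadjusted p under 0.05 and 0 passed, but that test called 0 of all genes. Over all 19937 genes limma called 4.91%, and 3276 had an unadjusted p under 0.05 in limma and 2124 with each gene's own spread. FcγRII was excluded by the gate too, and its gene Fcgr2b was called higher, by 0.43 log2 units. Values of this family thus come from cells sorted on the product of a member. Whether the antibody also bound the product of Fcgr3, which fell by 1.04, was not given in the labels. The gene Ly6a, which encodes Sca1, had no probe set of its own here. A transcript level and surface staining are different measures, and staining was not analysed here.

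Genes listed here for the next stage rose, though a listed gene need not be limited to that stage. Of 11 measured granulocyte-macrophage progenitor genes all 11 rose, beside 2.63% of all genes, with a median of 1.88 log2 units. All 11 were called without any 1 array. They include Ctsg (3.54), Clec12a (2.56), Flt3 (2.15) and Elane (2.08 log2 units). Fcgr3 fell in the arrays in which these genes rose. Cebpa read higher in those arrays too, by 2.17 log2 units, against their label. The direction of all these differences follows the labels as deposited. Among the arrays labelled Mx1Cre, replicate 2 had the highest value of Fcgr3 (7.50), Fcgr2b (7.25), Fcer1a (6.27), Ms4a2 (8.74) and Cebpa (9.31). Within the list of 11 it was also highest for Mpo (12.96), Elane (8.70), Prtn3 (9.65), Ctsg (11.66), Ms4a3 (9.84), Csf1r (7.81), Csf3r (8.11) and Irf8 (8.39). For the rest of that list it was lowest for Clec12a (9.39) and Cd34 (11.17), and its Flt3 value (9.51) lay in the middle.

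Other cells that carry Fc gamma receptors were followed by marker lists, with levels summed on the linear scale. The shares to set beside each count of calls are 2.63% of all genes higher and 2.28% lower. The lineage-negative, Kit-positive gate should remove mature macrophages, neutrophils and B cells. Because 1 bright gene can carry such a sum, each was also taken without the gene whose linear level differed most between groups, a step chosen after the values were seen. Of 10 natural killer (NK) and innate lymphoid markers 3 fell (Rora, Il7r and Gata3, at -1.36, -1.13 and -0.49 log2 units) and the other 7 did not pass. Their summed level was 2630.0 to 2841 over the flox/flox arrays and 1684 to 2331 over the Mx1Cre arrays. Nkg7, which did not pass (-0.42 log2 units), held most of it, and without Nkg7 it was 772.2 to 823.2 and 507.8 to 615.8. Of 8 mast cell and basophil markers 2 rose (Mcpt8 at 2.77 and Ms4a2) and 2 fell (Fcer1a and Cpa3, at -0.81). That sum was 4922 to 5125 over the flox/flox arrays and 3780.4 to 4407 over the Mx1Cre arrays. Cpa3 held most of it, and without Cpa3 the sum was 846.2 to 926.7 and 1524 to 1979, so its direction turned. The sum of the NK and innate lymphoid list was lower in every array labelled Mx1Cre with and without Nkg7, as Fcgr3 was. Of its 7 genes that did not pass, Klrk1 (0.20) and Eomes (0.34 log2 units) differed upward. Gzma (-0.43), Nkg7 (-0.42), Klrb1c (-0.19), Prf1 (-0.09) and Ncr1 (-0.04 log2 units) differed downward. The part of any of these cell types in the fall of Fcgr3 was not tested. Among NK markers Ncr1 and Klrb1c read 5.58 and 4.88 in the arrays labelled flox/flox, below the lower quartile of all genes.

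Of 10 macrophage markers 3 rose (Cd68 at 1.28, Adgre1 at 0.51 and Cd163 at 0.42 log2 units) and 7 did not pass. Of these genes 1 was called without flox/flox replicate 3. The list had a median of 0.05 log2 units, and C1qa, C1qb and C1qc, which did not pass, differed by -0.07, -0.13 and -0.12. The sum was 700.3 to 729.7 over the flox/flox arrays and 947.1 to 1185 over the Mx1Cre arrays. Without Cd68, which carried most of that difference, it was 499.8 to 518.3 and 524.4 to 571.0. The macrophage markers Vsig4 and Mertk stayed below the lower quartile in both groups. Of 8 mature neutrophil markers 2 rose (Ngp at 0.90 and Lcn2 at 0.59) and 6 did not pass, while Ly6g was dim at 4.54 and 4.51. Leaving out flox/flox replicate 1 or flox/flox replicate 3 brought that count to 0, leaving out Mx1Cre replicate 2 to 1, and leaving out Mx1Cre replicate 3 to 4. The neutrophil sum was 320.5 to 354.5 over the flox/flox arrays and 384.9 to 500.4 over the Mx1Cre arrays, and without Ngp 271.8 to 302.2 and 316.6 to 382.5. Of 7 measured B cell markers, a lineage in which Fcgr2b is the main IgG receptor, 0 passed with limma (2 at an unadjusted p under 0.05). With each gene's own spread 0 had an unadjusted p under 0.05 and 0 passed, but that test called 0 of all genes. Without Mx1Cre replicate 2, 1 passed with limma. The B cell sum was 872.2 to 957.6 over the flox/flox arrays and 698.8 to 913.4 over the Mx1Cre arrays, so the groups overlapped, as they did without Vpreb1 (473.0 to 514.1 and 477.2 to 536.1), and Ms4a1 and Ebf1 lay below the lower quartile in both. The macrophage and neutrophil sums were higher in every array labelled Mx1Cre with and without Cd68 or Ngp, as Fcgr2b was, and their part in its rise was not tested.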

How the data were processed

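The authors deposited log2 expression values per probe set, made with RMA and the affy software per the submitters' processing notes. RMA corrects for background, makes array distributions equal and combines each set's probes. The sources used here give neither versions nor the chip definition. Per the labels' protocols, 20 ng of total RNA was amplified before labelling. Platform annotation, which can be old, named 21640 of 34760 probe sets by 1 symbol. The brightest set stood for each of 19937 genes. Groups of 3 arrays were compared with limma 3.58.1 in R 4.3.3 (lmFit, eBayes, Benjamini-Hochberg over all genes, no replicate term), which was tested on simulated data. Each array is a separate mouse, as the design text counts 3 of each genotype. Array number limits the precision. Members, gene lists and alternatives were chosen with earlier results of these data known. The text names all members, up to 4 higher and 4 lower called genes per list, a set of fixed genes whatever their p, the 3 nearest profiles of each member, and a few listed markers, neighbours and receptors chosen after their values were seen. Promoter sequences are RefSeq's on GRCm38.p6, and all 5 members matched by symbol. Coordinates of gene bodies are not given, because the array annotation names no build.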

Additional observations from a re-analysis of the deposited data

How the results depend on the processing

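Over 20 results and 14 alternatives, 213 of 275 recomputed values kept their direction and their side of the threshold, or for counts stayed within 1.5 times. The fall of Fcgr3 lost its call with the Welch test (-1.04, adjusted p = 0.377) and with all probe sets (-1.04, 0.110). The rise of Fcgr2b lost its call with median centring (0.42), the Welch test (0.43) and all probe sets (0.43), and ranged from 0.36 to 0.50 without 1 array. Fcer1g changed sign without flox/flox replicate 2 (0.040) and without Mx1Cre replicate 1 (0.039), in a range of -0.13 to 0.040. Called members of the family went from 2 to 1 with median centring, to 0 with the Welch test and with all probe sets, and to 1 to 2 without 1 array. Counts over all genes went from 979 to 244 with all probe sets, 0 with the Welch test (before adjustment 2124 genes had p under 0.05 there and 3276 in limma) and 538 to 785 without 1 array. The Welch test took every list to 0 calls. With all probe sets the activating list had 4 calls, macrophage markers 1, mast cell and basophil markers 2, and the neutrophil, inhibitory, neighbour and other immunoglobulin receptor lists 0. Without 1 array the calls were 4 to 5 in the activating list, 0 to 2 in the inhibitory list, 0 to 1 among neighbours, 0 to 1 among B cell markers, 1 to 3 among macrophage markers and 0 to 4 among neutrophil markers. B cell markers also had 1 call with the intensity trend and robust prior. With the replicate number as a block, counts went to 2 in the inhibitory list, 2 among ITAM adaptors and partners and 1 among B cell markers. Card9 was lost with it (0.0640), and Fcgr3 and Fcgr2b stayed called (0.00397 and 0.0331). Same-numbered arrays shared deviations at 0.19, 0.05 and 0.17 (correlation across genes), and differently numbered arrays at -0.25 to 0.12. The labels name no pairs, and the main fit took none. Whether arrays of the same number belong together was not tested. The cause of these changes was not tested. The number of arrays and dim signal limit what can be seen for Fcgr1 and Fcgr4.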
